A study of Mus musculus with 35 samples.

Results

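The comparison of wild-type with PPARα-null mice 6 h after an oral dose of DHA covered 14752 probesets, of the 45037 on the array that are not controls. A probeset was included, and is called expressed below, when its mean was above log2 5 (32 on the linear scale) in wild-type or in PPARα-null mice. The probesets that carry 1 gene symbol stood for 8334 genes. The comparison rested on 9 of the 35 arrays of the study, 5 of wild-type and 4 of PPARα-null mice, with 1 mouse per array. Wild-type mice were of the strain 129S1/SvImJ and PPARα-null mice of 129S4/SvJae, so that genotype and substrain cannot be told apart. All of these mice were males, about 4 months old, and had eaten a low-fat AIN76A diet in which olive oil was the fat for 2 weeks. After a fast of 4 h they received 400 μl of tridocosahexaenoin, the triacylglycerol of DHA, and RNA was taken from the whole length of the small intestine. Mice without an agonist were not analysed here, and each difference therefore includes any difference that the genotypes have without DHA.

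PPARα is a nuclear receptor that binds fatty acids and drugs such as WY14643. Together with its partner RXR it binds DNA at direct repeats of a short motif and raises the transcription of genes for the transport, activation and oxidation of fatty acids in mitochondria and peroxisomes. In the small intestine it is abundant in enterocytes, the cells that take up dietary fat and send most of it on in chylomicrons. DHA is a polyunsaturated ω-3 fatty acid of fish oil.

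Of the 8334 expressed genes 233 (2.8%) were called at an adjusted p under 0.05 in limma, the test used for every adjusted p below. A gene is said to have risen when its call was higher in wild-type mice, and to have fallen when it was lower there. There were 168 genes that rose (2.02%) and 65 that fell (0.78%). Over 2-fold were 72 of the genes that rose and 16 of those that fell. At an unadjusted p under 0.01 there were 675 genes (8.1%). The median difference was 0.91 on the log2 scale for the called probesets that were higher and -0.65 for those that were lower, against -0.01 for all expressed genes. The levels of the groups did not overlap in 322 of the 330 called probesets (2.24% of those expressed). Of all expressed probesets 7.06% had groups that did not overlap, 3.56% with wild-type mice above and 3.5% with them below. In RNA of a whole tissue, fewer cells of a type and less RNA per cell cannot be told apart.

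The receptor itself was measured by 3 probesets. On the most responsive of them wild-type mice 1 to 5 had log2 levels of 7.35, 8.39, 8.52, 7.24 and 8.57 and PPARα-null mice 1 to 4 had 5.97, 5.29, 6.56 and 6.07. Every wild-type mouse was above every PPARα-null mouse, and Ppara rose by 2.05 (standard error 0.34, adjusted p = 0.013). The remaining probesets differed by 1.03 (adjusted p = 0.0165) and 1.08 (adjusted p = 0.0519), and PPARα-null mouse 3 was the highest of the 4 on each of the 3 probesets. Whether these probes lie within the deleted part of the gene is not given in the sources used here.

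Cyp4a10, an ω-hydroxylase of fatty acids and a classical PPARα target, shares its probeset with Cyp4a31. The log2 levels were 9.78, 9.51, 9.51, 8.47 and 9.88 in the wild-type mice and 1.36, 2.50, 2.41 and 2.15 in the PPARα-null mice. All 9 arrays thus stood on the side that their genotype label gives. The log2 difference was 7.33, with a standard error of 0.31 (adjusted p = 1.15e-06). Since levels under 32 are uncertain, the fold is given as at least 21.6. Aldh3a2, which oxidises the fatty aldehydes that ω-hydroxylation leads to, was the only other gene of the ω-hydroxylation list that rose, out of 7 expressed, and it rose by 1.57 (standard error 0.09, adjusted p = 1.15e-05).

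**Figure D1:**
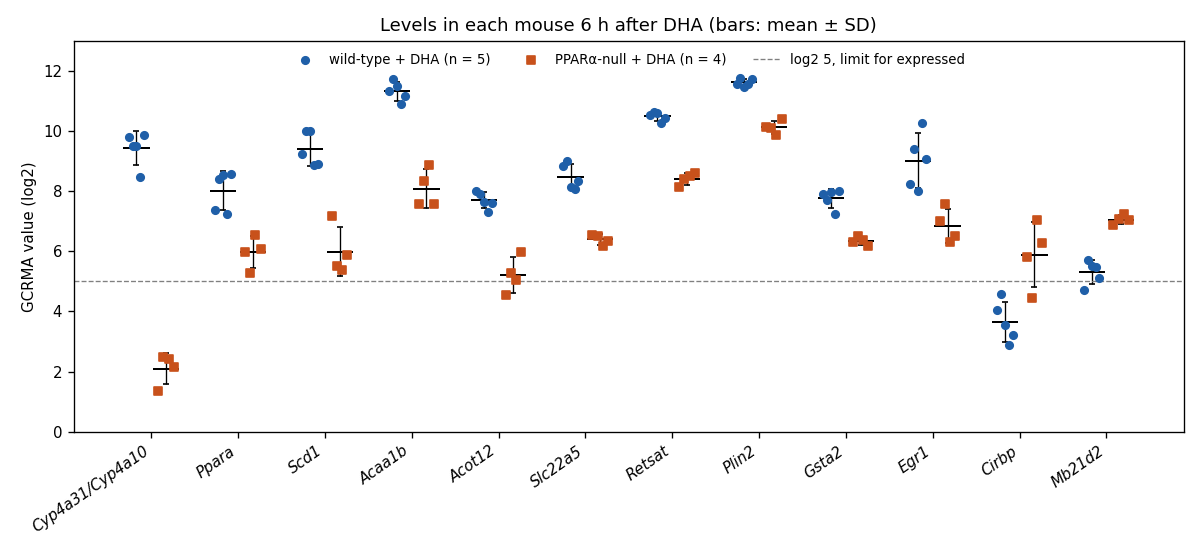
Log2 GCRMA level of 12 probesets in each wild-type (blue circles, n = 5) and PPARα-null mouse (orange squares, n = 4) 6 h after DHA, with group means and SDs; the dashed line is log2 5, the limit for expressed. The groups are separate for 11 of the genes shown, and for Cirbp PPARα-null mouse 2 (4.46) lies below wild-type mouse 2 (4.58).

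The genes of fatty acid oxidation formed the largest group that rose. Of 24 expressed genes of mitochondrial fatty acid oxidation 13 rose and none fell, with a median difference of 0.51 on the log2 scale over the list. Of 9 expressed acyl-CoA thioesterases, which release free fatty acids from CoA, 6 rose and none fell (median 0.76). The peroxisomal list, with 34 expressed genes, had 9 that rose and none that fell (median 0.21). These shares compare with 2.02% of all expressed genes that rose.

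Slc22a5, the plasma membrane carrier for carnitine, had log2 levels of 8.82, 9.00, 8.13, 8.08 and 8.33 in wild-type and of 6.56, 6.51, 6.18 and 6.33 in PPARα-null mice. This was a 4.22-fold difference (adjusted p = 0.000374), and its groups lay far apart. Further along the same route Cpt1a, which makes acylcarnitines, rose by 0.62, Slc25a20, which carries them across the inner membrane, by 1.27 and Cpt2, which turns them back into acyl-CoA, by 0.78. Of the enzymes of the β-oxidation spiral the very long chain dehydrogenase Acadvl rose by 0.90 (adjusted p = 0.00032) and both subunits of the trifunctional protein rose, Hadha by 0.68 and Hadhb by 0.66 on its probeset of highest level. Eci1, the isomerase needed for unsaturated fatty acids, had levels from 8.73 to 9.32 in wild-type and from 7.08 to 7.56 in PPARα-null mice and was 3.43-fold higher (adjusted p = 8.98e-05). The medium chain dehydrogenase Acadm did not pass the test, at 0.14 (adjusted p = 0.549).

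Among peroxisomal genes the thiolase Acaa1b had log2 levels of 11.32, 11.72, 11.50, 10.89 and 11.15 in wild-type and of 7.57, 8.32, 8.88 and 7.56 in PPARα-null mice. In wild-type mice Acaa1b stood 9.40-fold above its level in PPARα-null mice (adjusted p = 0.000163). The membrane protein Pxmp4, with levels from 7.12 to 7.94 against 4.96 to 5.46, was 5.20-fold higher too (adjusted p = 7.08e-05). Every wild-type mouse was above every PPARα-null mouse for both genes. Hsd17b4, the multifunctional enzyme that acts on branched and very long chains, rose by 1.10 (adjusted p = 0.000343), and the acyl-CoA transporter Abcd3 by 0.88 (adjusted p = 8.22e-05). Ehhadh, the other multifunctional enzyme and a well known PPARα target, did not pass the test, at 0.37 (adjusted p = 0.23).

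Acot12, a cytosolic thioesterase, had log2 levels of 7.99, 7.90, 7.65, 7.32 and 7.60 in wild-type and of 4.54, 5.27, 5.04 and 5.99 in PPARα-null mice, a 5.59-fold difference (adjusted p = 0.000665). Acot1 and Acot2, paralogs in the cytosol and in mitochondria, were more spread among the PPARα-null mice. Acot1 was at 6.89, 7.93, 6.65 and 8.71 in these mice against 9.14 to 9.89 in wild-type, a difference of 1.95 (adjusted p = 0.0228). Without PPARα-null mouse 1 the thioesterases that rose numbered 2, Acot8 and Acot12, and without any other array 4 to 6. The mitochondrial list kept between 10 and 14 genes that rose, and the peroxisomal list between 7 and 8, whichever of the 9 arrays was left out. The mitochondrial genes called with every array and without each array in turn were Acadvl, Cpt1a, Cpt2, Eci1, Eci2, Etfdh, Hadha, Hadhb, Slc22a5 and Slc25a20, on at least 1 probeset each. The peroxisomal ones were Abcd3, Acaa1b, Acot8, Crot, Eci2, Hsd17b4 and Pxmp4. The calls of Acaa2, Acad11 and Ech1 were lost without most single arrays, with adjusted p of up to 0.0992, 0.0965 and 0.0999.

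The direct repeat of AGGTCA with 1 base between the copies, the motif of PPAR with RXR, was searched for on both strands, with up to 2 mismatches at the spelled bases, in the RefSeq promoters of the assembly GRCm38.p6. Each promoter is a window of 300 bases that ends shortly after the start of a gene. A match was found in 3.86% of 32851 promoters. Of the 35 called genes in the lists of fatty acid metabolism 31 had a promoter, and 5 of them held a match. These 5 are shown, 5′ to 3′ on the strand of the gene and with 20 flanking bases or fewer, because they are the called genes whose promoters hold the letters of the receptor's motif. Capitals mark the match, and in all but Slc25a20 it lies on the opposite strand.
Acot12, chr13:91741391-91741443: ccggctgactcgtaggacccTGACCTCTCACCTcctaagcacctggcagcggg
Acot4, chr12:84038346-84038398: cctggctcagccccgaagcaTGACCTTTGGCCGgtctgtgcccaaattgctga
Cd36, chr5:17835927-17835979: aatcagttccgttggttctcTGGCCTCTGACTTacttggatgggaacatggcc
Plin2, chr4:86670252-86670304: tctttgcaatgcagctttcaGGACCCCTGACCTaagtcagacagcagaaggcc
Slc25a20, chr9:108662122-108662165: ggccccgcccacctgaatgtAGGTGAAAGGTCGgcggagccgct
The match in Acot12 had 1 mismatch and began 110 bases before the start, and the others had 2 mismatches each. A match is a description of the letters in this window, and the windows of the remaining genes say nothing about binding elsewhere.

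Some genes that store fat in droplets and shape fatty acids rose as well, and so did a smaller share of those that build chylomicrons. Of 13 expressed genes for lipid droplets and lipolysis 4 rose (30.8%), and of 16 for lipogenesis and desaturation 3 rose (18.75%). Of 23 genes for the resynthesis of triacylglycerol and for chylomicrons 2 rose (8.7%), Agpat2 by 0.46 and Creb3l3 by 0.39. Of all expressed genes 2.02% rose. None of the 3 lists held a gene that fell.

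Scd1, the Δ9 desaturase that makes oleate, had the largest difference of the called probesets with a single gene. Its log2 levels were 9.22, 10.01, 9.997, 8.86 and 8.90 in wild-type and 7.17, 5.51, 5.36 and 5.89 in PPARα-null mice, a 10.6-fold difference (adjusted p = 0.0012). PPARα-null mouse 1 was the closest to wild-type mice, and it still lay below all of them. Me1, the malic enzyme that supplies NADPH, rose by 2.10 (adjusted p = 0.0016) and the paralog Scd2 by 1.10 (adjusted p = 0.0278). Plin2, which coats lipid droplets, was at 11.57, 11.75, 11.46, 11.56 and 11.72 in wild-type and at 10.13, 10.09, 9.86 and 10.39 in PPARα-null mice, a 2.82-fold difference with little spread (adjusted p = 5.09e-05). G0s2, an inhibitor of adipose triglyceride lipase, rose by 2.39 (adjusted p = 0.00583), although PPARα-null mouse 4 (6.45) lay 1 to 2 log2 units above the other PPARα-null mice (4.63 to 5.45). Without PPARα-null mouse 1 the droplet genes that rose numbered 2, G0s2 and Plin2, and the adjusted p of Fitm2 was then 0.0512. Neither Agpat2 nor Creb3l3 stayed called without each array in turn, with adjusted p of up to 0.0757 and 0.0687.

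Some genes often named as PPARα targets did not pass the test. Pdk4, the kinase that shuts off pyruvate dehydrogenase, was at 10.57, 10.41, 10.41, 10.33 and 10.79 in wild-type and at 7.13, 8.19, 9.31 and 9.85 in PPARα-null mice. The groups did not overlap, but the PPARα-null mice ranged over more than 2 log2 units, and the difference of 1.88 had an adjusted p of 0.0568. Angptl4, an inhibitor of lipoprotein lipase, differed by 1.32 (adjusted p = 0.0981), with PPARα-null mouse 4 at 9.58 within the wild-type range and PPARα-null mouse 1 at 7.25 far below it. The fatty acid binding protein Fabp1, among the most abundant transcripts, differed by 0.20 (adjusted p = 0.0609), and the transporter Slc27a4 by 0.45 (adjusted p = 0.0571). Of 18 expressed genes for fatty acid uptake, binding and activation 1 rose, where 2.02% of all expressed genes did. It was Cd36, by 0.75 on 1 of its 3 probesets (adjusted p = 0.0433). At an unadjusted p under 0.05, 8 of the 18 were higher, against 10.6% of all expressed genes. The call of Cd36 was lost when any array but PPARα-null mouse 3 was left out (adjusted p of up to 0.119).

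A few genes for retinoids and for glutathione conjugation rose as well, where 2.02% of all expressed genes rose. Retsat, the retinol saturase, was at 10.53, 10.63, 10.58, 10.26 and 10.43 in wild-type and at 8.14, 8.40, 8.52 and 8.60 in PPARα-null mice. This 4.20-fold difference was among the best supported of the comparison (adjusted p = 7.44e-06). Aldh1a7 and Aldh1a1, aldehyde dehydrogenases of the retinoid list, rose by 0.96 and 0.39. Thus 3 of 15 expressed genes of that list rose and none fell, and without PPARα-null mouse 2 there were 5 that rose. Of 20 expressed glutathione S-transferases 4 rose, namely Gsta2 by 1.41, Gstm3 by 1.40, Gstk1 by 0.56 and Mgst1 by 0.29. Gsta2 ranged from 7.23 to 7.999 in wild-type and from 6.19 to 6.51 in PPARα-null mice and stayed called without each array in turn. The number of these transferases that rose was 2 without PPARα-null mouse 1 or 3 or without wild-type mouse 1 or 2, and 1 without wild-type mouse 5. Of 20 expressed genes for glucuronidation, sulphation and acetylation limma called none, with 2 higher and 3 lower at an unadjusted p under 0.05 and a median of -0.05. Cyp2c65, a cytochrome P450 that is abundant in the gut, rose by 1.31 (adjusted p = 0.00063), as the only one of 15 expressed P450 genes outside the Cyp4 family. Scarb1, the receptor for high density lipoprotein, rose by 1.24 (adjusted p = 0.00116), as the only one of 13 genes for the uptake and efflux of sterols. Ephx1 and Nqo1, enzymes of detoxification, rose by 0.90 and 0.74, and Nqo1 lost its call without most single arrays (adjusted p of up to 0.0885).

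**Figure D2:**
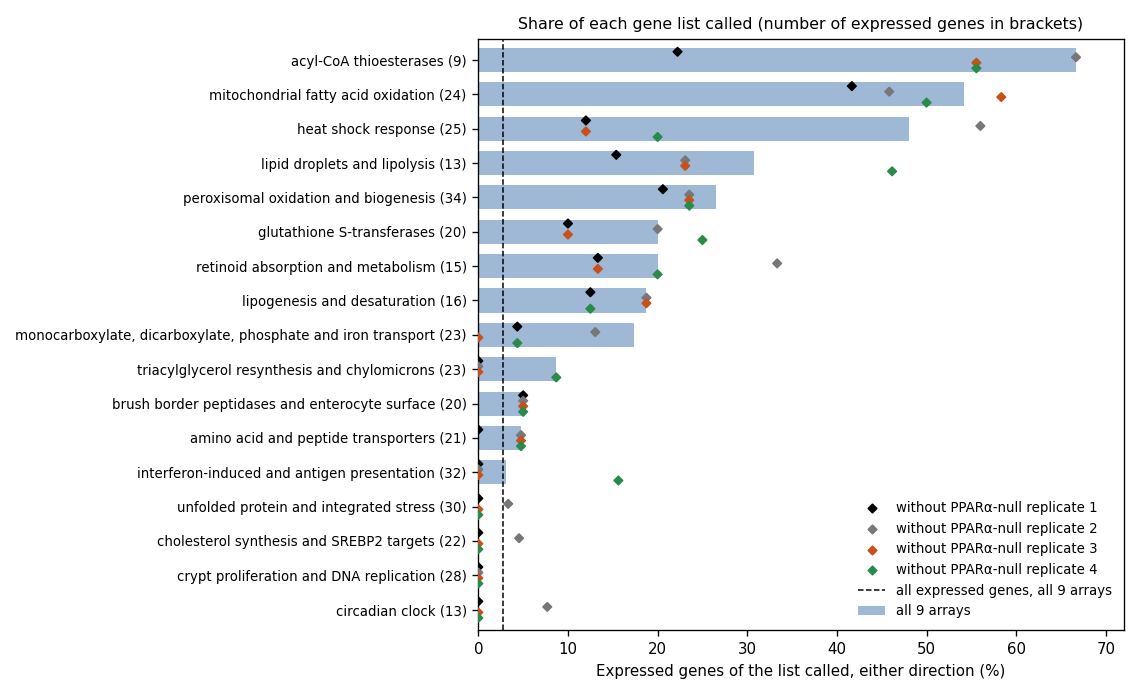
Percentage of the expressed genes of 17 lists that were called in either direction, with all 9 arrays (bars) and without each PPARα-null array (diamonds); the dashed line is the share of all expressed genes (2.8%) and the number of expressed genes stands in brackets. The mitochondrial list keeps 10 to 14 of 24 genes whichever PPARα-null array is left out, whereas the heat shock list drops from 12 of 25 genes to 3 without PPARα-null replicate 1 or 3 and rises to 14 without replicate 2.

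Heat shock genes, whose products are chaperones that fold damaged proteins, rose together in wild-type mice. Of 25 expressed genes of the list 12 rose and none fell, against 2.02% of all expressed genes that rose. In wild-type mice 24 of the 25 were higher, with a median difference of 0.47. At an unadjusted p under 0.05 the number was 21, against 10.6% of all expressed genes. The inducible Hsp70 gene Hspa1b had log2 levels of 10.54, 9.35, 7.39, 8.67 and 9.30 in wild-type and of 6.72, 6.35, 5.81 and 5.44 in PPARα-null mice. The wild-type mice ranged over more than 3 log2 units, and the lowest of them, mouse 3, still lay above every PPARα-null mouse. The difference was 7.83-fold, with a standard error of 0.52 on the log2 scale (adjusted p = 0.0178). Without wild-type mouse 5 the adjusted p on this probeset was 0.0545. Its near copy Hspa1a was at 7.09, 5.43, 4.53, 5.47 and 6.10 against 3.76, 3.51, 3.26 and 3.23, and since the arrays may not tell the copies apart, their separate values are uncertain. Hspa8, the constitutive Hsp70, rose by 2.08 on a probeset of low level (adjusted p = 0.013) and differed by 0.64, 0.46 and 0.44 on its other probesets. The Hsp110 gene Hsph1 was at 8.94, 9.02, 7.83, 8.73 and 9.47 in wild-type and at 7.50, 7.82, 6.50 and 6.26 in PPARα-null mice, and rose by 1.78 (adjusted p = 0.0368). The co-chaperones Dnaja1, Chordc1 and Cacybp rose by 0.80, 0.80 and 0.66, the collagen chaperone Serpinh1 by 1.19 and the Hsp90 gene Hsp90aa1 by 0.86.

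How many heat shock genes passed depended on single mice of both groups. The number that rose was 3 without PPARα-null mouse 1, 3 without mouse 3 and 5 without mouse 4, and 14 without mouse 2. Without wild-type mice 1 to 5 in turn it was 4, 7, 12, 5 and 2. Only Hspa1b and Hspa8 stayed called throughout, on at least 1 of their probesets. In a fit of all 35 arrays 18 of the 25 rose. That fit called more genes of any kind, 388 higher against 168 with the 9 arrays, and 8.54% of all expressed genes in either direction. The median difference of the list moved little, from 0.47 to 0.57, when each PPARα-null array was left out. Of 30 expressed genes for unfolded proteins and the integrated stress response none was called in limma. Still, 24 of the 30 were higher in wild-type mice, with a median difference of 0.27. At an unadjusted p under 0.05 there were 10 higher (33.3%) and 1 lower (3.33%), against 10.6% and 11.1% of all expressed genes. The chaperone Hspa5 of the endoplasmic reticulum differed by 0.45 (adjusted p = 0.171).

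**Figure D3:**
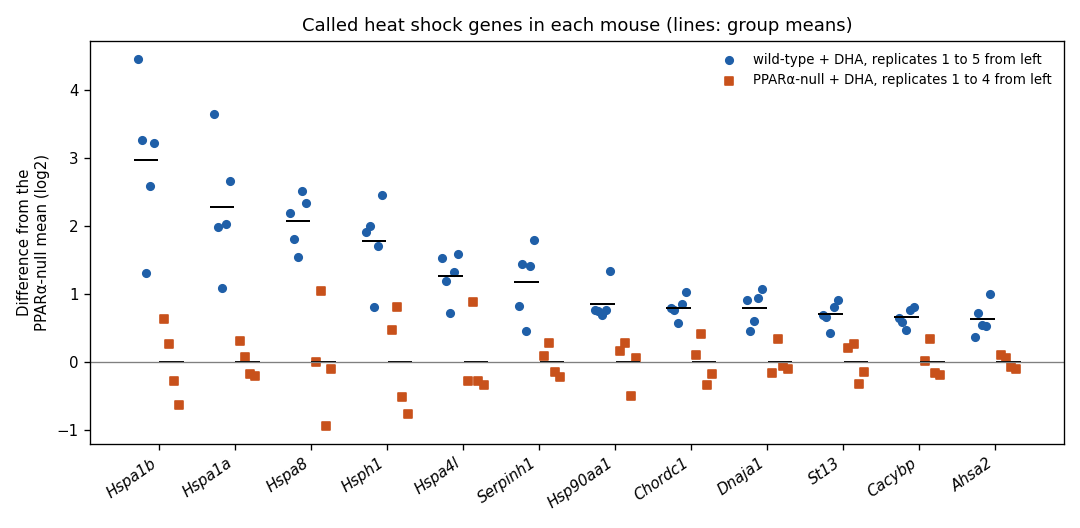
Log2 difference of each wild-type (blue circles, replicates 1 to 5 from the left) and PPARα-null mouse (orange squares, replicates 1 to 4 from the left) from the PPARα-null mean, for the called probeset of largest difference of the 12 heat shock genes that rose; short lines are group means. Wild-type replicate 3 is the lowest wild-type mouse for Hspa1b (7.39 on the log2 scale), and PPARα-null replicate 2 is the highest PPARα-null mouse for Hsph1 (7.82).

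The heat shock element, in the form GAA, TTC, GAA or the form TTC, GAA, TTC with 2 bases in each gap, and with at most 1 mismatch at the spelled bases, occurred in 7.22% of the 32851 promoters. Of the 9 called heat shock genes with a promoter 5 held it: Chordc1, Dnaja1, Hspa1a, Hspa1b and Hsph1. The promoters of Hspa1a and Hspa1b are identical at 296 of 300 bases, so they count as close to 1 sequence. The windows of 4 of these genes are shown, since they hold the letters that the heat shock factor binds, with the matches, some of which overlap, in capitals.
Hspa1a, chr17:34972233-34972290: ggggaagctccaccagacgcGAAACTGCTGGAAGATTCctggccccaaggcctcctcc
Hspa1b, chr17:34959315-34959372: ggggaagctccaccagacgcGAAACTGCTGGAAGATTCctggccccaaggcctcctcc
Chordc1, chr9:18292243-18292296: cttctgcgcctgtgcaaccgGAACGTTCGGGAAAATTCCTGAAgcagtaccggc
Dnaja1, chr4:40722319-40722371: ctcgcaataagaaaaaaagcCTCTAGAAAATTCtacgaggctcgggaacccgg
In Chordc1 3 overlapping matches had no mismatch. In Hspa1a and Hspa1b 2 overlapping matches with 1 mismatch each began 114 and 109 bases before the start.

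Egr1, an early response transcription factor, also rose, with log2 levels of 8.25, 9.40, 8.004, 10.27 and 9.08 in wild-type and of 7.01, 7.58, 6.31 and 6.52 in PPARα-null mice. The groups did not overlap, and the difference was 4.44-fold (adjusted p = 0.0309). The call was lost without PPARα-null mouse 1, 3 or 4 or wild-type mouse 2 or 5 (adjusted p of up to 0.0873). Genes of growth factor signalling that were picked after their values were seen, and so carry no weight as a group, included the epidermal growth factor receptor ligands Ereg (1.86, adjusted p = 0.0427) and Btc (1.59, adjusted p = 0.00583) and the induced inhibitors Phlda1 (1.89, adjusted p = 0.00621), Spry2 (1.02, adjusted p = 0.0236) and Dusp5 (0.86, adjusted p = 0.0182). Of these Btc and Phlda1 stayed called without each array in turn. Apoa2, an apolipoprotein of high density lipoprotein, was at 6.96, 8.07, 8.31, 8.60 and 7.10 in wild-type and at 6.13, 4.68, 5.00 and 6.22 in PPARα-null mice. It rose by 2.30 (adjusted p = 0.0209), and without PPARα-null mouse 3 the adjusted p was 0.0594.

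Fewer genes fell, and several of the largest falls were seen on 1 of several probesets. One probeset of Clta, the clathrin light chain A, was at 7.86, 8.32, 8.36, 7.81 and 8.26 in wild-type and at 10.64, 10.31, 10.87 and 10.57 in PPARα-null mice. This difference of -2.47 (adjusted p = 1.75e-05) was not shared by its most abundant probeset (-0.22, adjusted p = 0.122). Creb3, a transcription factor of the endoplasmic reticulum, fell by 1.501 on 1 probeset and differed by 0.17 and 0.01 on the others. Pigo, an enzyme of GPI anchor synthesis, fell by 1.29 on 1 probeset and differed by 0.26 and -0.17 on the others. The 3 genes lie close together on chromosome 4 in GRCm38.p6, and of the 15 expressed genes whose starts lie from 43017626 (Pigo) to 44034075 (Gne) 4 fell, Gne by 0.59, and none rose, against 0.78% of all expressed genes that fell. The ends of this stretch were set at called genes after their values were seen, which fixes part of the count. Of the 106 called genes with more than 1 expressed probeset, 26 had every probeset called and 13 had probesets of opposite sign. Among the genes that rose, Glo1, a glyoxalase, likewise differed by 2.35 on 1 probeset and by 0.57 to 0.74 on the others.

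Mb21d2 was at 4.70, 5.72, 5.53, 5.47 and 5.10 in wild-type and at 6.86, 7.07, 7.25 and 7.04 in PPARα-null mice, a 3.37-fold difference (adjusted p = 0.0013) that stayed called without each array. Npl, which breaks down sialic acid, fell by 1.43 (adjusted p = 0.0082) and also stayed called. Cirbp, the cold-inducible RNA binding protein, which is known to fall on heat, was at 4.04, 4.58, 3.56, 2.89 and 3.23 in wild-type and at 5.79, 4.46, 7.04 and 6.27 in PPARα-null mice. The groups overlapped through PPARα-null mouse 2, and the fold of at least 1.86 (adjusted p = 0.0436) passed the test only with all arrays or without PPARα-null mouse 2 or wild-type mouse 2 (adjusted p of up to 0.117). Prodh, which starts the breakdown of proline, fell by 1.11 (adjusted p = 0.0161), and without PPARα-null mouse 1 its adjusted p was 0.0582. The vasoconstrictor peptide gene Edn2 (-1.31), the kinase Nuak2 (-1.196) and the interferon-induced factor Irf1 (-0.81) fell, and each lost its call without 6 of the 9 arrays in turn. Irf1 was the only one of 32 expressed genes of the interferon and antigen presentation list that fell. Of all expressed genes 0.78% fell. Without PPARα-null mouse 4 the interferon list had 5 that fell. On chromosome 17 the sialidase Neu1 (-0.93, adjusted p = 0.0182) and the choline transporter Slc44a4 (-0.53, adjusted p = 0.0366) fell within 55.1 kb of Hspa1a and Hspa1b, which rose, and these ends too were set at called genes.

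Some genes for transporters and enzymes of the brush border passed the test, where 2.8% of all expressed genes were called in either direction. The share called was 17.4% of the genes for monocarboxylate, dicarboxylate, phosphate and iron transport. It was 4.76% of the amino acid and peptide transporters and 5.0% of the brush border genes, through 1 gene each. Of 23 expressed genes for the transport of monocarboxylates, dicarboxylates, phosphate and iron 2 rose and 2 fell, 12 were higher in wild-type mice, and the median was 0.02. Slc13a2 of this list, a citrate and succinate transporter, was at 10.16, 10.80, 10.61, 10.18 and 9.57 in wild-type and at 11.15, 11.09, 11.97 and 11.34 in PPARα-null mice. It fell by 1.12 (adjusted p = 0.0444), and of the 9 arrays only wild-type mouse 2 could be left out without losing the call (adjusted p of up to 0.104). Of 21 expressed amino acid and peptide transporters 1 fell, the creatine carrier Slc6a8 (-0.55, adjusted p = 0.0218), and without PPARα-null mouse 1, 2 or 3 it did not pass (adjusted p of up to 0.0589). The list median was -0.45, and 11 of its genes were lower at an unadjusted p under 0.05, against 11.1% of all expressed genes. Without PPARα-null mouse 3 the median was -0.26, and without the other PPARα-null mice it was -0.45 to -0.53. The peptidase Dpp4 was the only one of 20 brush border genes that fell, by 0.85 on its most responsive probeset. The phosphate carrier Slc34a2 had a difference of -2.31 that did not pass (adjusted p = 0.0781), with wild-type levels spread from 3.47 to 7.23 against 7.16 to 8.02 in PPARα-null mice. S100g, a calcium binding protein, rose by 1.10 and the zinc transporter Slc30a2 fell by 0.63.

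Clock genes stood out by their median and by 1 mouse rather than by calls. Of 13 expressed genes none was called in limma, 5 were lower at an unadjusted p under 0.05 (11.1% of all expressed genes were), and the median difference was -0.47. Per3 was at 3.65 to 4.23 in wild-type and at 5.28, 4.25, 6.14 and 5.48 in PPARα-null mice on 1 of 2 probesets (-1.36, adjusted p = 0.0602), and Dbp, an output gene of the clock, differed by -0.94 on the more responsive of its probesets (adjusted p = 0.0658). Over the list the median deviation from the PPARα-null mean was 0.49 in PPARα-null mouse 3 and -0.35 in mouse 2, and without mouse 3 the median difference was -0.31. In the mice given other agonists the list median was -0.41 after WY14643, -0.45 after EPA and -0.08 after OA. These values are from all 35 arrays, and the medians were not tested against each other. According to the methods, all mice were gavaged at 9 AM and killed 6 h later. None of 22 expressed cholesterol synthesis genes and none of 28 proliferation genes was called in limma. At an unadjusted p under 0.05 the former had 3 lower and none higher, and the latter 5 higher and 1 lower, where 10.6% of all expressed genes were higher and 11.1% lower.

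Cell type markers showed no called difference apart from Cidec, a lipid droplet gene that stands in the adipocyte list (0.83, adjusted p = 0.022). The summed linear level of 11 expressed enterocyte markers ranged from 122665 to 137946 in wild-type and from 125855 to 131087 in PPARα-null mice. Of the pancreatic acinar list, 15 genes were expressed although pancreas had been trimmed off, and their sum ranged from 21741 to 192464 in wild-type and from 33032 to 79479 in PPARα-null mice. Wild-type mice 1 and 5 had the highest levels of the carboxypeptidase gene Cpa1, at 13.16 and 12.08, and none of the 15 differed between the groups even at an unadjusted p under 0.05. No erythrocyte marker was expressed. The part of these cells in the results was not tested.

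The 9 arrays were alike in overall level, with 31.9 to 32.4% of probesets above 32 on each, but PPARα-null mouse 3 stood apart. On the first principal component, which held 35.5% of the variance of the expressed probesets, it scored 48.3, the other PPARα-null mice 4.9 to 21.8 and the wild-type mice -30.3 to 0.7. Its median correlation with the mice of its group was 0.969, against 0.978 to 0.981 for the other PPARα-null mice. It was the PPARα-null mouse farthest from the wild-type mean for 47.9% of the called probesets and for 45.0% of all expressed probesets.

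Even so, the number of calls rested most on PPARα-null mouse 1 and on wild-type mice 5 and 1. Without PPARα-null mice 1 to 4 in turn 98, 230, 141 and 204 genes were called, and 97, 169, 127 and 161 of these were among the 233. Without wild-type mice 1 to 5 the numbers were 113, 160, 165, 142 and 99. No called probeset changed its sign. Of the 233 genes 86 stayed called without each PPARα-null array in turn, 75 that rose and 11 that fell, and 82 stayed called without each of the 9 arrays. Among the 4 fits that each left out a PPARα-null mouse, 22 genes were lost in the fit without mouse 1 alone, 4 in the one without mouse 3 alone and none in those without mouse 2 or 4 alone; some of these were also lost without a wild-type mouse. A mouse left out of the fit can be set against the calls made without it. The wild-type mice it is compared with also made those calls, so the shares are not an independent check. PPARα-null mouse 1 lay beyond every wild-type mouse, in the direction called, for 98.6% of the probesets called from the other 8 arrays, and mice 2, 3 and 4 did so for 85.5, 93.2 and 85.4%. Over all expressed probesets these shares were 37.3, 25.8, 46.7 and 31.1%.

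PPARα-null mouse 3 weighed most when the spread was taken from the whole study. A fit of all 35 arrays called 712 genes (8.54%), 221 of which were among the 233. Without PPARα-null mouse 3 that number fell to 208, with 148 of the 233 among them, and without mouse 2 it was 1031. The array labels of 3 other arrays in that fit, wild-type EPA mouse 5, PPARα-null EPA mouse 5 and PPARα-null OA mouse 1, go against their levels of the Cyp4a10 probeset. Leaving these 3 out gave 829 genes for DHA.

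**Figure D4:**
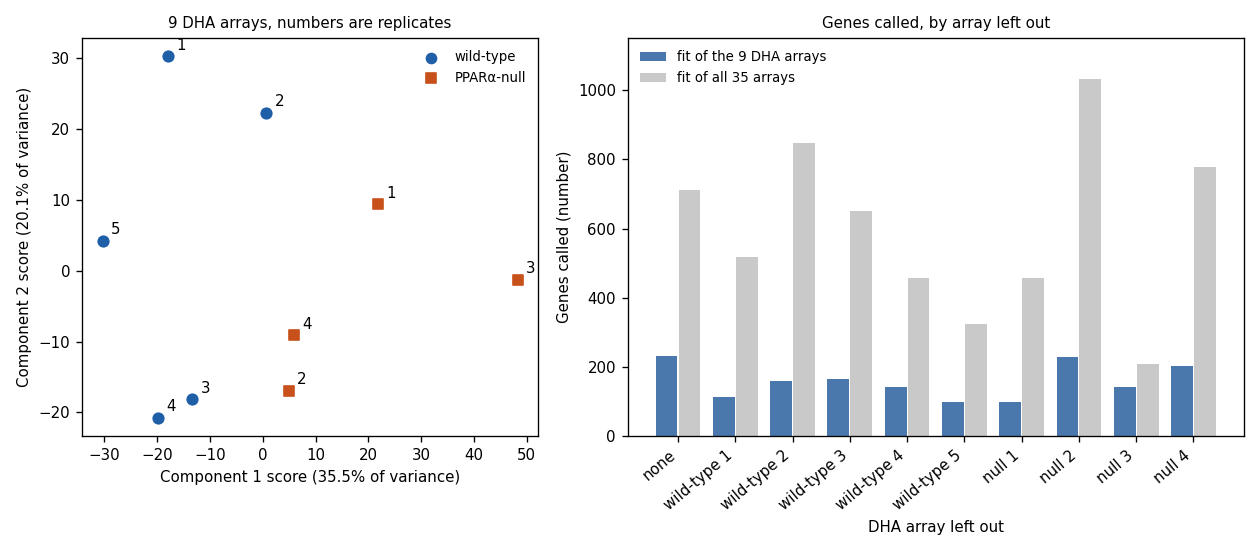
Left, scores of the 9 DHA arrays on the first 2 principal components of the expressed probesets, with the replicate number beside each point (circles, wild-type; squares, PPARα-null). Right, number of genes called with no array left out and without each DHA array, in the fit of the 9 arrays (blue) and of all 35 arrays (grey): PPARα-null replicate 3 lies apart at 48.3 on component 1, and leaving it out takes the blue bar from 233 to 141 and the grey bar from 712 to 208.

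The same genotype difference was measured under 3 other agonists, each in its own wild-type and PPARα-null mice. The group means share no animal, but the spread in these fits was taken over all groups, DHA mice included. The probesets tested were those expressed in the DHA groups. The genes after DHA are those of the 9-array fit, whereas the fit of all 35 arrays called 388 higher and 324 lower after DHA. The lists set side by side here thus come from unlike fits, and the shares depend on that. Of the 168 genes that rose after DHA 106 (63.1%) also rose after WY14643 in the fit of all 35 arrays, and 158 had the same sign. The 106 are 31.5% of the 337 that rose after WY14643 (4.04% of all expressed genes). Of the 65 that fell 27 (41.5%) fell after WY14643 too, which is 9.68% of the 279 that did so (3.35%). With every array under its label, limma called no gene after EPA (0.0%), where 1015 genes had an unadjusted p below 0.05. After OA it called 20 higher (0.24%) and 8 lower (0.096%), and of these 5 rose and 3 fell after DHA. When the 3 arrays that go against their labels were left out, 129 genes rose after EPA (1.55% of all expressed genes) and 100 after OA (1.2%). Of the 168 genes that rose after DHA 85 were among the former (65.9% of them) and 56 among the latter (56.0%). The genes that fell numbered 46 after EPA (0.552%) and 26 after OA (0.312%), and of the 65 that fell after DHA 15 were among the former (32.6% of them) and 11 among the latter (42.3%). The arrays were left out for their genotype, and those counts therefore favour a difference between the genotypes.

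Some genes of fatty acid oxidation differed more after WY14643 than after DHA, while most had no interaction that passed. The median difference of the mitochondrial list was 1.13 after WY14643 and 0.51 after DHA, and these medians were not tested against each other. It was 0.18 after EPA and 0.24 after OA with every array under its label, and 0.42 and 0.37 without the 3 arrays. The interaction of genotype with agonist, tested in limma over all 35 arrays, passed for 33 genes between DHA and WY14643 (0.396%), of which Cpt1a, Etfdh and Hadhb were in the mitochondrial list of 24, Ehhadh in the peroxisomal list of 34 and none among the 9 thioesterases. Without the 3 arrays 92 genes passed (1.1%). Of these 10 were in the mitochondrial list, 10 in the peroxisomal list and 3 among the thioesterases (Acot1, Acot4 and Acot8). Eci2 and Acot8 are shared between these lists. Slc16a13, a monocarboxylate carrier, differed by 3.42 after WY14643 and by 0.86 after DHA (interaction -2.56, 95% interval -3.44 to -1.67, adjusted p = 0.00468). Its PPARα-null means, 4.73 and 4.43, lie under log2 5, so both differences are uncertain in size, and its wild-type means were 8.16 and 5.29. Fitm2, a protein of lipid droplet formation, differed by 1.98 and 0.84 (interaction -1.14, adjusted p = 0.0352). Gsta2 went the other way, at -0.23 after WY14643 and 1.41 after DHA (interaction 1.64, 95% interval 1.00 to 2.27, adjusted p = 0.00946). Against OA its interaction was 1.27 with all 35 arrays (adjusted p = 0.53) and 1.504 without the 3 arrays (adjusted p = 0.027), the only gene with such an interaction against OA (0.012%).

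Egr1, Apoa2 and Cirbp showed large differences after DHA but not after WY14643, where they were -0.02, 0.40 and -0.65, yet none of the 3 interactions passed (for Egr1 2.17, 95% interval 0.89 to 3.45, adjusted p = 0.166). In the heat shock list 4 of 25 genes rose after WY14643, against 4.04% of all expressed genes, and no member had an interaction that passed. None rose after EPA or OA as labelled, where only 0.0% and 0.24% of all expressed genes rose. The list medians were then 0.32 after WY14643, 0.09 after EPA and 0.29 after OA. Without the 3 arrays 8 rose after WY14643, 1 after EPA and 0 after OA, against 4.46, 1.55 and 1.2% of all expressed genes. Hspa1b differed by 2.67 after WY14643 and by 2.97 after DHA (interaction 0.30, 95% interval -1.63 to 2.23). Between DHA and EPA, and between DHA and OA, limma called no interaction (0.0%) with all 35 arrays, at 686 and 691 genes with an unadjusted p under 0.05. Clta, Creb3, Mb21d2 and Pigo were lower in wild-type mice by a like amount under every agonist: Clta differed by -2.47 after DHA, -2.37 after WY14643, -2.64 after EPA and -2.17 after OA, the last 2 without the 3 arrays.

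**Figure D5:**
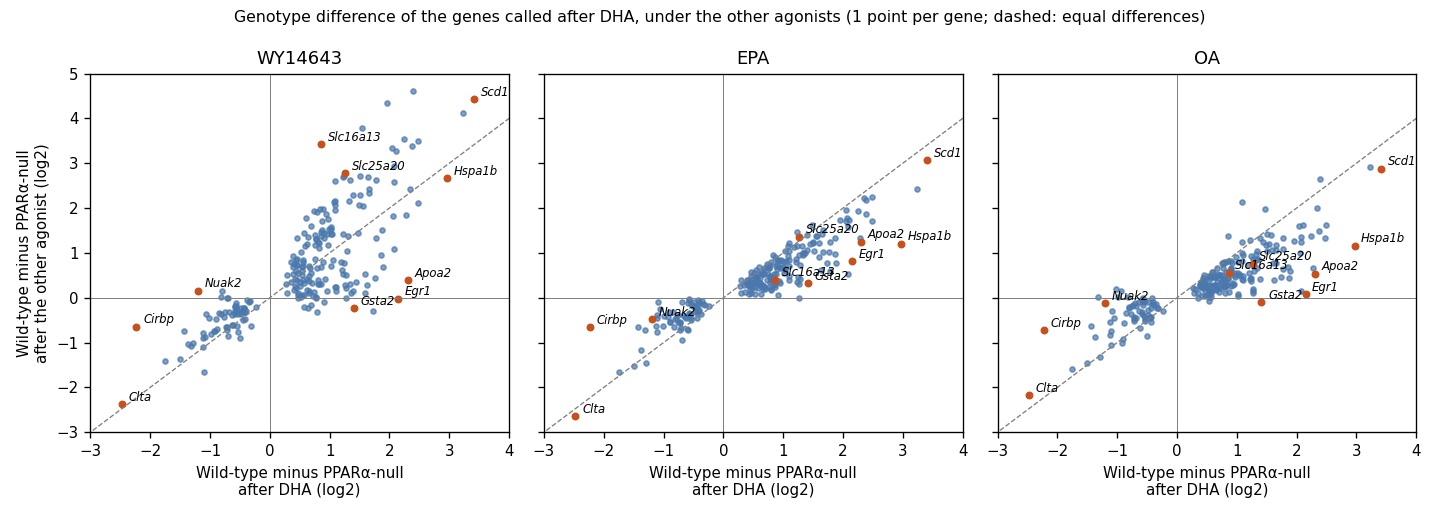
Log2 genotype difference, wild-type minus PPARα-null, after DHA (horizontal) and after WY14643, EPA or OA (vertical) for the genes called after DHA, 1 point per gene on its called probeset of largest difference; the dashed line marks equal differences, orange points are named, and EPA and OA leave out the 3 arrays that go against their labels. Slc16a13 lies above the line for WY14643 (0.86 and 3.42), Gsta2 and Egr1 lie below it, and Clta lies near it in each panel.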

How the data were processed

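RNA of 1 mouse was hybridised to each Affymetrix whole-genome mouse array. The authors corrected, normalized and summarised the probes with GCRMA (version not given in the sources used here). Their deposited log2 values entered each step without further scaling. Gene symbols came from the platform annotation, which gives 1 symbol to 34945 probesets, several to 932 and none to 9160. Wild-type and PPARα-null DHA arrays were compared in limma 3.58.1 (R 4.3.3) with 2 group means, the empirical Bayes step with an intensity trend and Benjamini-Hochberg adjustment over the 14752 expressed probesets. Genes count as called through any expressed probeset with an adjusted p under 0.05, and each gene is represented in medians by its expressed probeset of highest mean. Interactions used 8 group means over all 35 arrays. The number of arrays limits the precision. Where a group lay under 32, a fold is a lower bound against 32. The fit was tested on simulated data.

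The genes and gene lists were chosen with earlier results of these data known. The rule for naming took the 15 largest rises and falls, the 4 largest called members of a list, and Ppara and Cyp4a10. Not all of these are described. Rab30 (2.48) and Hsdl2 (2.25), for example, were among the largest rises and stayed called without each array. Genes named outside this rule were picked after their values were seen. Replicate numbers did not pair the mice (correlations of deviations 0.24, -0.46, 0.08 and -0.14). Alternatives covered the arrays in the fit, filter, normalization, empirical Bayes step, probesets and threshold. Promoter sequences are from RefSeq (GRCm38.p6), and Python 3.11.15 with pandas 2.3.3 and matplotlib 3.10.9 was used.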

Additional observations from a re-analysis of the deposited data

Results flagged for a closer look

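The genotype difference after DHA minus that after WY14643 passed limma's interaction test for 3 of the genes named by rule: Gsta2 (1.64), Slc16a13 (-2.56) and Fitm2 (-1.14). The PPARα-null means of Slc16a13 lie under log2 5, so its value is uncertain in size. Among 146 tests for a single mouse far from the rest of its group, 5 met the limit, and chance alone gives about 1 in 20. The lowest wild-type value of the Cyp4a31 and Cyp4a10 probeset was that of mouse 4, at 8.47. PPARα-null mouse 1 was lowest for Aldh3a2, at 9.74 with the other 3 between 9.82 and 9.83. Wild-type mouse 3 was highest for Cd36 (7.62), wild-type mouse 2 was highest for Gstk1 (10.46) and wild-type mouse 5 was lowest for Slc6a8 (10.40).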

How the results depend on the processing

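The counts moved with the arrays in the fit and with the threshold. Against 233 genes called, 168 higher and 65 lower, all 35 arrays gave 712, 388 and 324, and all arrays but the 3 that went against their labels, chosen after seeing the data, gave 829, 445 and 384. An unadjusted p under 0.01, the threshold of the study, gave 675, 373 and 303, with 1 gene in both directions. Without a filter on the level 39 genes were lower. Leaving out each DHA array gave 98 to 230 genes, 81 to 182 higher and 16 to 54 lower. In the fit of all 35 arrays, an alternative added after seeing the data, it gave 208 to 1031, 130 to 629 and 78 to 422. With the replicate number as a block, which drops wild-type mouse 5 as it has no partner, 68, 60 and 8 genes were called. The replicate numbers do not pair the mice, and what these lower counts mean for the effects was not tested. The other alternatives left the total between 170 and 282. Of 73 named probesets 25 kept their call under every alternative, and of 2300 values 1923 kept it, 372 no longer passed, 5 newly passed and 0 changed sign. The cause of these moves was not tested. With 5 and 4 mice, genes near the threshold, most heat shock genes among them, depend on single mice.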

Other observations

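Single probesets of Mcpt1 and Ighm were high in the same PPARα-null mice, and the marker lists that hold these genes did not follow. The mast cell protease Mcpt1 had log2 levels of 6.22 and 7.91 in PPARα-null mice 1 and 4, 3.66 and 3.19 in mice 2 and 3 and 2.847 to 3.73 in wild-type mice (adjusted p = 0.234 in limma). Ighm, the heavy chain of IgM, was at 8.02 and 8.86 on 1 of its 7 probesets in the same 2 mice and at 3.90 to 4.93 in the other 7 (adjusted p = 0.272). On another probeset only PPARα-null mouse 1 was high, at 9.08, with the other 8 between 7.45 and 7.87. Over the 9 expressed macrophage and mast cell markers the median deviation from the PPARα-null mean was 0.20 in mouse 1 and 0.02 in mouse 4, and over the 7 plasma and B cell markers it was 0.39 and -0.0023. PPARα-null mouse 3, which stood apart on the first principal component, was not high for either gene. Akr1b8, an aldo-keto reductase, was at 5.99, 6.95, 4.29 and 7.89 in PPARα-null mice and at 7.83 to 9.58 in wild-type mice, a difference of 2.36 that did not pass (adjusted p = 0.0898).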
